A study of Mus musculus with 6 samples.

Results

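The chromosome 2 and chromosome 4 zinc finger gene clusters are long arrays of duplicated genes that expanded in rodents. Their members were selected on position, as all array probes, controls aside, whose start on mouse genome build mm9 lay on chromosome 2 from 175 to 178 Mb or on chromosome 4 from 145 to 147 Mb. Neighbouring probes with starts at most 1000 bp apart were joined into regions of at least 3 probes, given below by their mm9 positions. This gave 34 regions with 230 probes on chromosome 2 and 18 regions with 121 probes on chromosome 4, 52 of 21987 regions on the array. All 351 probes of the windows fell into a region and none carried a spot flag. The windows themselves were chosen by measured values, the low log2 ratios of IP over input that earlier results of these data showed there, so how low the clusters lie is a description and was not tested.

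Many protein-coding genes of such clusters encode KRAB zinc finger proteins. Each protein carries a KRAB domain, which recruits the co-repressor TRIM28 (KAP1) and through it the histone methyltransferase SETDB1, and a row of C2H2 zinc fingers that reads a DNA sequence. Many bind transposable elements and help to silence them in early embryos and embryonic stem cells, and new copies arise by local duplication. Zfp600 and Rex2 belong to the chromosome 4 cluster and Zfp931 to the one on chromosome 2.

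The samples were livers of mice aged 32 weeks. Their dams had received a chromium-restricted diet or a control diet, with 3 arrays per group; no strain, sex or litter is used here. The labels name liver as the tissue, while the extraction text names fat, and a DNA methylation array offers no expressed marker to check this. On each array, DNA pulled down with an antibody to methylated cytosine (IP) carried the red dye and input DNA the green dye. A higher log2 ratio of IP over input stands for more methylated DNA around the probe. The ratio was not corrected for the number of CG dinucleotides around the probe. A low ratio alone therefore does not show that the sequence is unmethylated. All values average over all cells of the tissue piece.

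The files pair probes with positions and not with genes, and no sequence of the probes was used. To show what the promoters of these clusters look like, promoters were taken from RefSeq on GRCm38.p6, a later build than that of the array, and were not joined to single probes. Between Edn3 and Phactr3, the genes that flank the chromosome 2 cluster, that table lists 80 genes, of which 32 are protein-coding and 25 are pseudogenes. Between Tnfrsf8 and Miip, on chromosome 4, it lists 82 genes, 19 of them protein-coding and 56 of them pseudogenes. Of the protein-coding genes, 9 on chromosome 2 and 17 on chromosome 4 have a Zfp number or the name Rex2 as their symbol. Promoters were at hand for 31 and 14 protein-coding genes. These gene sets are bounded by the flanking genes and not by the array windows, so they need not hold the same members as the regions.

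The 3 promoters below are from the chromosome 2 cluster and show how alike some of its members are. Each is the 250 bases before the gene start, 5′ to 3′ on the gene's strand, with every CG dinucleotide, the site of cytosine methylation, in capitals. Zfp968 lies at chr2:175372186-175372435, Zfp967 at chr2:176520754-176521003 and Zfp965 at chr2:175469775-175470024, all on the plus strand of GRCm38.p6.
Zfp968: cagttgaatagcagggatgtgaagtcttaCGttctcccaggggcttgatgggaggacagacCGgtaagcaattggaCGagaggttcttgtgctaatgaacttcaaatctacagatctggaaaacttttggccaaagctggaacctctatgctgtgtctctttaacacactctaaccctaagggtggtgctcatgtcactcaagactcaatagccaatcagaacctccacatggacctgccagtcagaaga
Zfp967: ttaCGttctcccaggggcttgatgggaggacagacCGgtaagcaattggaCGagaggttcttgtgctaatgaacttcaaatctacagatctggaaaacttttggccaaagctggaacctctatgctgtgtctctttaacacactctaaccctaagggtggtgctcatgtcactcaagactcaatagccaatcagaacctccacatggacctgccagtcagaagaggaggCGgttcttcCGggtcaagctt
Zfp965: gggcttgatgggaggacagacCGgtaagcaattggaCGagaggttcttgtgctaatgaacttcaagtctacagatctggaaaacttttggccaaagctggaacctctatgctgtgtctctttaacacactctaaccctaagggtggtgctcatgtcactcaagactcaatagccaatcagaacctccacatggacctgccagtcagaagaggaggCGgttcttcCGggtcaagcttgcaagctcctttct
They held 3, 5 and 4 CG dinucleotides in 250 bases. Over the 300 bases of the table, which add 50 bases after the start, the longest identical stretch was 274 bases between Zfp968 and Zfp967, 220 between Zfp965 and Zfp967 and 194 between Zfp968 and Zfp965. The identical stretches are offset against each other: position by position, only 86 of 300 bases of Zfp968 and Zfp967 were the same. Not all members were this alike: Zfp931 shared no stretch longer than 41 bases with Zfp968, Zfp967 or Zfp965.

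The next 3 promoters are from the chromosome 4 cluster, a near-identical pair and a more distant member. Zfp600 lies at chr4:146156577-146156826 and Rex2 at chr4:147021600-147021849 on the plus strand, and Zfp534 at chr4:147702632-147702881 on the minus strand of GRCm38.p6.
Zfp600: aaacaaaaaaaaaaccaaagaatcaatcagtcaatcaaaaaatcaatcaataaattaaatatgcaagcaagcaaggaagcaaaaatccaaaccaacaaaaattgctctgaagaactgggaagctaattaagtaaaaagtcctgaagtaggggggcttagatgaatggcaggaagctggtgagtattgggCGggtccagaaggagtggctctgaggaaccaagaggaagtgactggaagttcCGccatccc
Rex2: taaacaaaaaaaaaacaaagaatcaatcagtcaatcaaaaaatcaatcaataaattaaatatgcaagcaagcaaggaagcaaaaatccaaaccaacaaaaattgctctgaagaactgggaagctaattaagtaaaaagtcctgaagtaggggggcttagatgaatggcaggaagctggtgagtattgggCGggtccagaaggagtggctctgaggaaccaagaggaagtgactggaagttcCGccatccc
Zfp534: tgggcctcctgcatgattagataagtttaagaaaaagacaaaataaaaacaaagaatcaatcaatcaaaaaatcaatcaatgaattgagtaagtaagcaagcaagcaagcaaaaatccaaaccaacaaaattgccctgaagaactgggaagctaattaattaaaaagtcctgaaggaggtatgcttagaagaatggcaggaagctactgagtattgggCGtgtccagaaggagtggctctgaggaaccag
They held 2, 2 and 1 CG dinucleotides in 250 bases. Zfp600 and Rex2 had the same base at 296 of 300 positions and an identical stretch of 285 bases. Zfp534 shared no stretch longer than 28 bases with either, and one of 121 bases with Zfp987.

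Counted over 300 bases, the 36 promoters of the chromosome 2 genes held 0 to 5 CG dinucleotides, with a median of 3.5, and the 17 promoters of the chromosome 4 genes held 1 to 16, with a median of 5. The median of all 32851 promoters in the table was 7. At most 5 CG dinucleotides were found in 100% of the chromosome 2 promoters, in 70.6% of those on chromosome 4 and in 43.6% of all. The pair CG reads the same on both strands. A stretch of 45 bases, the length of the shortest probe of the array, was shared with the promoter of at least 1 other gene by 31 of 36 promoters on chromosome 2 (86.1%), by 13 of 17 on chromosome 4 (76.5%) and by 8.48% of all promoters. On chromosome 2 a promoter shared such a stretch with up to 26 other genes, and on chromosome 4 with up to 4.

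On the array, log2 ratios were low along nearly the whole of both clusters. A region's level is the mean log2 ratio over its probes and the 6 arrays, after each array was centred on its median probe. On chromosome 2 the levels ran from -3.31 to 0.51, with a median of -2.25, and 30 of 34 regions lay below -1. On chromosome 4 they ran from -4.40 to -0.79, with a median of -3.09, and 17 of 18 lay below -1. The median of all regions on the array was -0.11, and 6.31% of them lay below -1. The lowest 1% of all regions lay below -2.41, and 12 regions of the chromosome 2 cluster and 11 of the chromosome 4 cluster were among them. These counts depend on the processing. In the lowest 1% with normexp background correction were 4 of 34 and 13 of 18 regions. With only probes well above background it was 7 of 28 and 11 of 16.

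**Figure D1:**
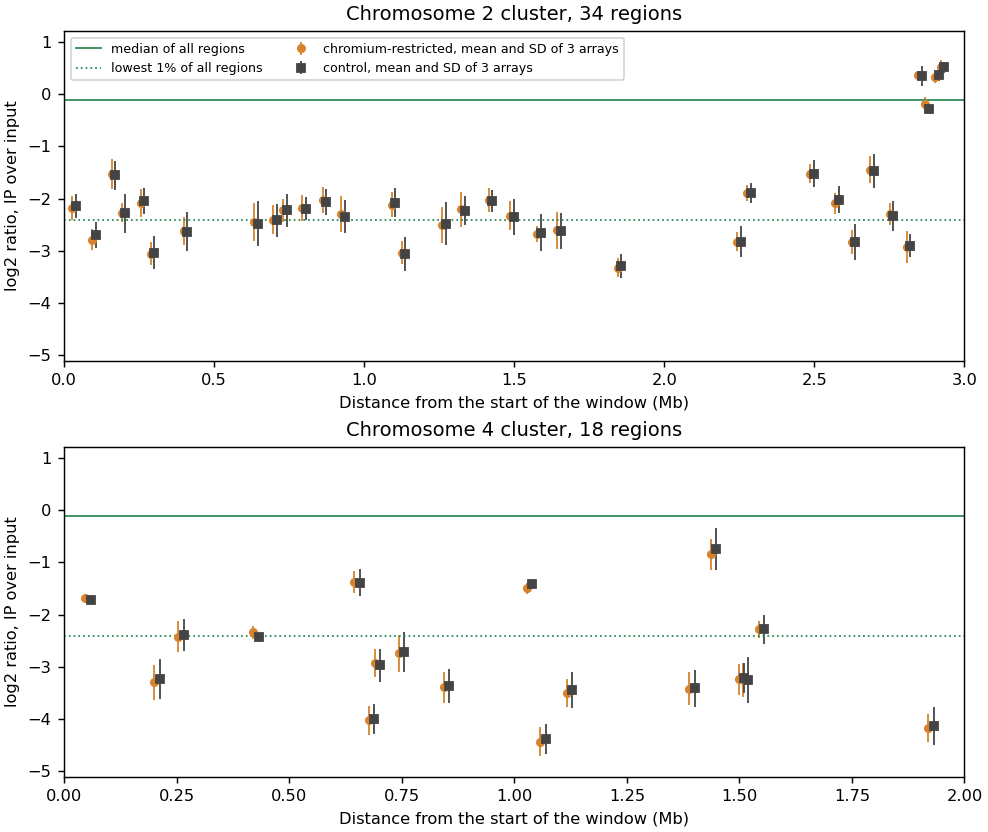
Mean log2 ratio of IP over input for each region against its distance from the start of the window in Mb, with the mean and SD of the 3 arrays of each group. The first 30 chromosome 2 regions lie between -3.31 and -1.46 and the last 4 between -0.23 and 0.51, and the chromosome 4 regions spread from -4.40 to -0.79; orange and grey points overlap throughout.

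The chromosome 2 cluster was a long low stretch that stopped before the end of the window. Its lowest region, from 176849841 to 176851197, had log2 ratios of -3.36, -3.47 and -3.12 on arrays 1, 2 and 3 of the chromium-restricted group, and -3.53, -3.06 and -3.29 on arrays 1, 2 and 3 of the control group. All 6 arrays were low and the groups overlapped. Next came the regions from 176130417 to 176131814 at -3.05, from 175294521 to 175295918 at -3.04, from 177812846 to 177814338 at -2.91 and from 177630855 to 177632150 at -2.83. The level of the region from 177812846 was -0.93 when only probes well above background were used. Each of the other regions just named had only 2 of 6 probes well above background, too few for such a level. Their levels thus rest mostly on probes whose IP was not well above background. The 4 regions at the distal end of the window were not low. Those from 177852395, 177875345, 177908755 and 177926491 had levels of 0.35, -0.23, 0.35 and 0.51. No genes were assigned to them, so whether they belong to zinc finger genes was not tested. They are counted in all values given for the 34 regions. Without them, the median level of the 30 low regions was -2.32. The highest of the low regions, from 177691539 to 177693185, had -1.46.

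The first region inside the chromosome 2 window started at 175032082 and had -2.16. The nearest region outside, from 174892772 to 174894557, had -2.50, so the low stretch began before the window, and the next one out, from 174584973, had -0.38. At the far edge the last region inside, from 177926491, had 0.51 and the first outside, from 178141883, had -0.72. In the 3 Mb before the window, 1 of 34 regions lay below -1, and in the 3 Mb after it 0 of 41.

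The chromosome 4 cluster reached lower values and was less even. Its lowest region, from 146063414 to 146065201, had -4.55, -4.63 and -4.11 with chromium restriction and -4.64, -4.07 and -4.42 in the controls. At -4.40 it was lower than all but 0.0227% of regions on the array, its own place included. The others of the lowest 5 were the regions from 146926098 to 146927789 at -4.15, from 145682677 to 145684282 at -4.01, from 146123085 to 146125487 at -3.47 and from 146394849 to 146396457 at -3.42. In these 5, in the order named, the IP was well above background for 5 of 8, 4 of 7, 4 of 6, 7 of 9 and 5 of 6 probes. With only probes well above background the level from 145682677 was -2.96, and the lowest level in the cluster was -3.81. The highest, from 146442047 to 146443241, had -0.90, -1.11 and -0.53 against -1.18, -0.40 and -0.65, and lay above -1. Regions from 145650471, 146033954, 145052994 and 146549012 had -1.38, -1.46, -1.70 and -2.28. The first 3 of these levels rested on part of their probes. With only probes well above background they were 0.44, -0.096 and -0.50, and with the median over probes 0.16, -0.42 and -0.67, all above -1.

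At the proximal edge of the chromosome 4 window the last region outside, from 144904563 to 144906198, had 0.10, and the first inside, from 145052994, had -1.70. At the distal edge the low values went on past the window. The last region inside, from 146926098, had -4.15, and the next outside, from 147016118 to 147017560, had -4.71. It was followed by regions from 147076279 at -3.50, from 147183474 at -2.71, from 147195886 at -2.06, from 147221995 at -1.05 and from 147241788 at 0.29. In the 3 Mb before this window 11 of 43 regions lay below -1, and in the 3 Mb after it 9 of 53.

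Single probes varied widely within the regions. Probe values, averaged over the 6 arrays, ran from -6.70 to 1.98 on chromosome 2 and from -8.08 to 1.36 on chromosome 4. Below -1 lay 148 of 230 probes on chromosome 2 (64.3%), 96 of 121 on chromosome 4 (79.3%) and 22.1% of the probes of all regions. Above 0 lay 30 and 11 probes of the clusters (13.0% and 9.09%), against 49.9% of the probes of all regions. Within a region the distance from the lowest to the highest probe had a median of 4.11 on chromosome 2 and 5.31 on chromosome 4, against 3.26 over all regions.

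The low ratios came with a high input signal, and on part of the regions with a low IP signal as well. Each channel is given as the log2 difference from the median probe of its array. The input signal of the chromosome 2 regions had a median of 1.32, that is 2.49-fold, and 33 of 34 regions lay above 0. On chromosome 4 the median was 2.29, or 4.89-fold, and 18 of 18 regions lay above 0. Over all regions the median was 0.18. An input signal more than 2 above the array median, on the log2 scale, was found in 10 of 18 regions on chromosome 4 (55.6%), in 3 of 34 on chromosome 2 (8.82%) and in 2.86% of all regions.

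The IP signal had a median of -0.62 on chromosome 2 and -0.56 on chromosome 4, against -0.10 over all regions. It lay below -1 in 16 of 34 regions on chromosome 2 (47.1%), in 5 of 18 on chromosome 4 (27.8%) and in 23.3% of all. The input and IP signals are the parts of the ratio by which the windows were chosen, so these are descriptions too. The copy number of these sequences in the input DNA and the share of each probe's signal that comes from other copies were not tested.

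**Figure D2:**
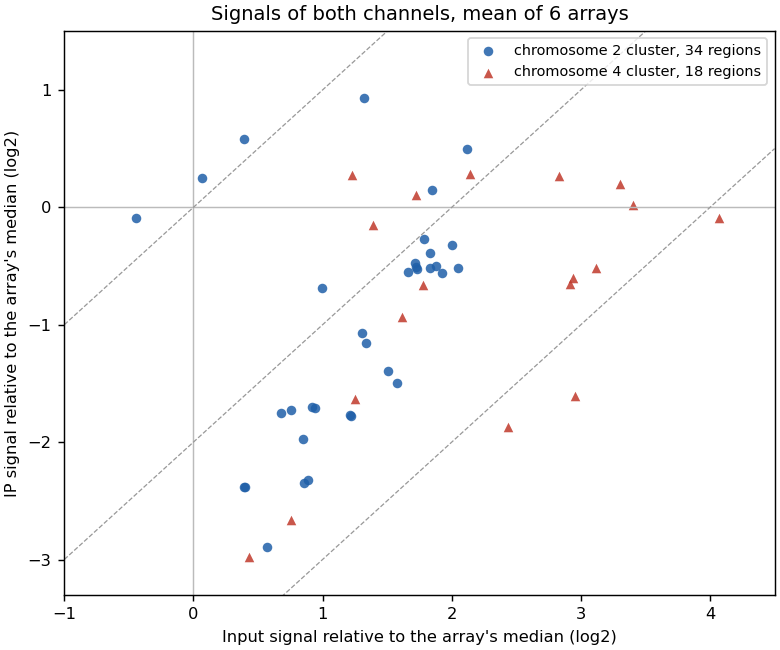
IP signal against input signal of each cluster region, both as the log2 difference from the array's median probe and averaged over 6 arrays; dashed lines mark IP minus input of 0, -2 and -4. Chromosome 4 regions (triangles) reach input values of 4.07, while those of chromosome 2 (circles) stay at or below 2.12. In IP both reach similar lows, -2.98 on chromosome 4 and -2.89 on chromosome 2. Each of these 2 lows rests mostly on probes whose IP was not well above background.

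Low ratios of single regions came from different signals. On chromosome 4 the region from 145682677 had an input signal of 4.07, 16.8-fold the array median, and an IP signal of -0.09, near that of a typical probe. The region from 146505150 had 3.40 and 0.02 in the same order, and that from 145695577 had 3.30 and 0.20. Low IP with a modest input was seen in the region from 146512936, with 0.43 in the input and -2.98 in the IP, and in that from 145205822, with 0.75 and -2.67. On chromosome 2 the lowest region, from 176849841, had 0.57 and -2.89, and the region from 175702375 had 2.05 and -0.52 at a level of -2.41. In the regions from 146512936, 145205822 and 176849841 the IP was well above background on all arrays for only 2 of 8, 2 of 7 and 2 of 6 probes. Their low IP values rest mostly on the remaining probes, so they are bounds. The 4 regions at the distal end that were not low had input signals of 0.39, 1.32, 0.07 and -0.45 and IP signals of 0.58, 0.93, 0.25 and -0.09.

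How well the probes were measured differed between the channels. The input was well above background on all 6 arrays for 220 of 230 probes on chromosome 2 (95.7%) and 120 of 121 on chromosome 4 (99.2%), against 73.6% over all regions. For the IP it was 153 probes (66.5%) and 80 probes (66.1%), against 75.8%. No probe of the clusters was saturated. Where the IP was not well above background, a probe's ratio is only a bound. When probes had to be well above background on every array, in IP and input alike, 28 regions of chromosome 2 and 16 of chromosome 4 kept at least 3 probes. Their median levels were -1.14 and -2.09, against 0.17 over all regions treated in this way.

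Many regions of the clusters came in copies with the same probe layout. A layout is the set of probe offsets and lengths within a region. On chromosome 2, 15 of 34 regions (44.1%) had the layout of another region, in 7 groups, and on chromosome 4 this held for 2 of 18 (11.1%). Outside the clusters it held for 153 of 21935 regions (0.698%). Layouts follow from sequence and position and were not used in choosing the windows.

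Regions with the same layout had nearly the same log2 ratio. The 3 regions of 1443 bp from 175261035, 176096936 and 176420785, each with 7 probes, had levels of -2.07, -2.09 and -2.04 and input signals of 1.72, 1.73 and 1.72. The pair of 1398 bp from 175294521 and 176130417 had -3.04 and -3.05, and the pair of 1561 bp from 175404530 and 176648876 had -2.62 and -2.61. On chromosome 4 the pair of 1609 bp from 145849493 and 146394849 had -3.38 and -3.42, and input signals of 2.94 and 2.92. Over all 10 pairs the levels differed by 0.0047 to 0.086, with a median of 0.030, and their input signals by a median of 0.013. The 64 matched probe pairs differed by a median of 0.067 and by at most 0.51.

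Regions of the same cluster with different layouts stood further apart. Their levels differed by a median of 0.61 over 552 pairs on chromosome 2 and of 0.99 over 152 pairs on chromosome 4. Pairs of regions share members, so these counts are not independent. Whether probes of equal layout also have equal sequence was not tested, and if they do, each reads all copies and the regions of a group are not separate measurements.

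**Figure D3:**
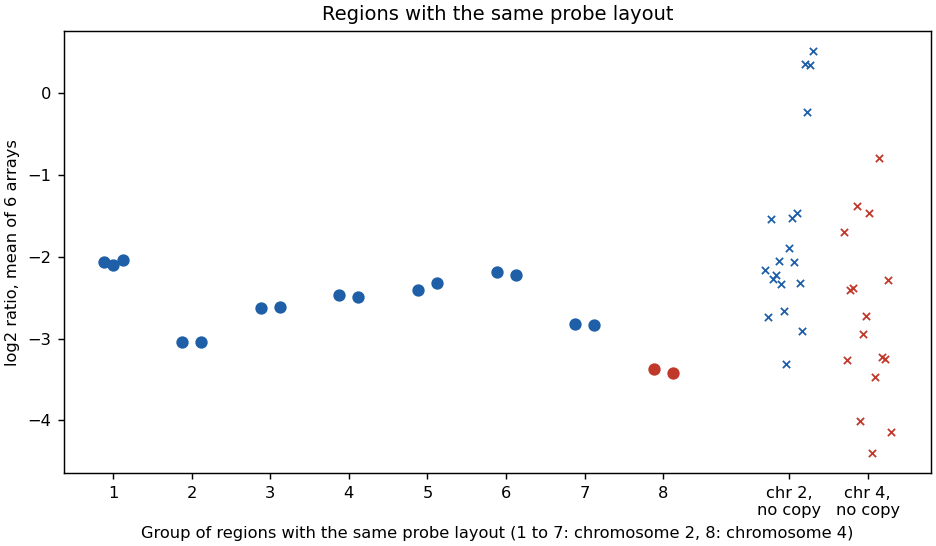
Level of each region (mean log2 ratio of 6 arrays) in the 8 groups that share a probe layout, and of the regions without such a copy (crosses). Members of a group differ by at most 0.086, while the regions without a copy spread from -4.40 to 0.51.

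The comparison between the groups asked whether methylation at these clusters depended on the diet of the dams. None of the 52 regions differed beyond the spread between arrays. Differences are chromium-restricted minus control, from limma fitted over all regions of the array with Benjamini-Hochberg adjustment. At an adjusted p under 0.05, 0 of 52 cluster regions and 0 of 21987 regions in all (0%) were called, and the lowest adjusted p was 1.0. At an unadjusted p under 0.05 the clusters held 0 of 52 regions, against 0.891% of all regions. Groups did not overlap in 0 of 52 regions, against 4.43% of all regions. Of the 351 probes, 0 passed the adjusted threshold (0% of all probes), and 1 had an unadjusted p under 0.05, against 1.3% of all probes. That probe lay in the distal chromosome 2 regions that were not low.

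On chromosome 2 the differences ran from -0.095 to 0.096, with a median of 0.0088, 21 above and 13 below 0. The median over all regions was 0.0042. On chromosome 4 they ran from -0.11 to 0.087, with a median of -0.027, 6 above and 12 below 0. The 95% confidence interval of a region had a median half-width of 0.38 on chromosome 2 and of 0.42 on chromosome 4, against 0.22 over all regions. It lay within -0.5 and 0.5 in 30 of 34 and in 14 of 18 regions. The widest bounds of single cluster regions reached -0.59 and 0.57.

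**Figure D4:**
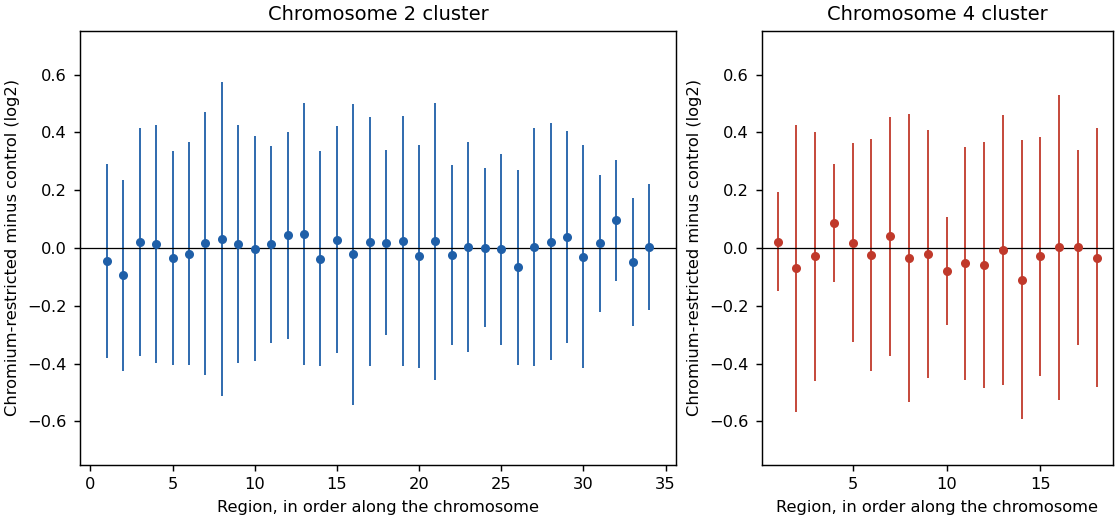
Difference between groups (chromium-restricted minus control, log2) with its 95% confidence interval from limma, for each region in order along the chromosome. Every interval includes 0, and the estimates lie between -0.11 and 0.096.

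The most negative difference on chromosome 4 was in its highest region, from 146442047, whose values on each array are given above. Its means were -0.85 ± 0.30 with chromium restriction and -0.74 ± 0.40 without (SD, n = 3 each), a difference of -0.11 (SE 0.21; limma adjusted p = 1.0). The regions from 146033954 and 145205822 followed with -0.080 and -0.071. The most positive was in the region from 145425824 to 145427464. It had -2.36, -2.45 and -2.21 with chromium restriction and -2.50, -2.34 and -2.45 in the controls, a difference of 0.087 (SE 0.089; limma adjusted p = 1.0). The regions from 145695577 and 145052994 had 0.040 and 0.022.

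On chromosome 2 the most positive difference was in the region from 177875345 to 177877070, one of those at the distal end that were not low. It had -0.14, -0.07 and -0.33 with chromium restriction and -0.20, -0.31 and -0.32 in the controls. The difference was 0.096 (SE 0.091; limma adjusted p = 1.0), and the groups overlapped. The regions from 175929777 and 175867137 had 0.049 and 0.044. The most negative was in the region from 175099601 to 175100841, at -2.78 ± 0.20 against -2.69 ± 0.25 (SD, n = 3 each), a difference of -0.095 (SE 0.14; limma adjusted p = 1.0). The regions from 177574742 and 177908755 had -0.067 and -0.049.

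Averaged over its regions, the chromosome 2 cluster had -2.09, -2.24 and -1.82 on arrays 1, 2 and 3 with chromium restriction and -2.31, -1.78 and -2.06 on those of the controls. The means were -2.05 ± 0.21 and -2.05 ± 0.26 (SD, n = 3 each), a difference of 0.0012. The chromosome 4 cluster had -2.89, -3.03 and -2.55 against -3.11, -2.54 and -2.76, with means of -2.82 ± 0.25 and -2.80 ± 0.29 (SD, n = 3 each), a difference of -0.021. In both clusters control array 1 was the lowest and control array 2 the highest, so the control group spanned the chromium-restricted one. Within scans 1, 2 and 3, each of which held 1 array per group, the difference was 0.22, -0.46 and 0.24 on chromosome 2 and 0.22, -0.49 and 0.21 on chromosome 4. The chromium-restricted arrays all lay at slide position 2 and the control arrays at position 4, so group and slide position cannot be told apart.

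The spread between arrays went with how bright the input was. The input signal of the median probe, after background subtraction, was 53.1, 83.8 and 46.1 scanner units with chromium restriction and 98.3, 38.1 and 60.4 in the controls. The pair with the brightest input, control array 1 and chromium-restricted array 2, had the lowest cluster means, and the pair with the dimmest input, control array 2 and chromium-restricted array 3, had the highest. Both bright arrays lay below both dim arrays in 31 of 34 regions on chromosome 2 and in 18 of 18 on chromosome 4, against 44.3% of all regions. The SD over the 6 arrays had a median of 0.24 and 0.27 in the cluster regions, against 0.11 over all regions.

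The channels differed in this. The median input signal of the chromosome 4 probes was 5.20, 6.03 and 4.09-fold the array's median with chromium restriction and 6.04, 4.23 and 4.96-fold in the controls. For chromosome 2 it was 2.54, 2.55 and 1.92-fold against 2.78, 2.01 and 2.31-fold. The corresponding IP signal hardly varied, from 0.664 to 0.695-fold on chromosome 2 and from 0.758 to 0.815-fold on chromosome 4. With the input brightness of the array as a covariate in limma, the median half-width of the confidence interval went from 0.38 to 0.17 on chromosome 2 and from 0.42 to 0.18 on chromosome 4, and 0 cluster regions passed the adjusted or the unadjusted threshold.

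**Figure D5:**
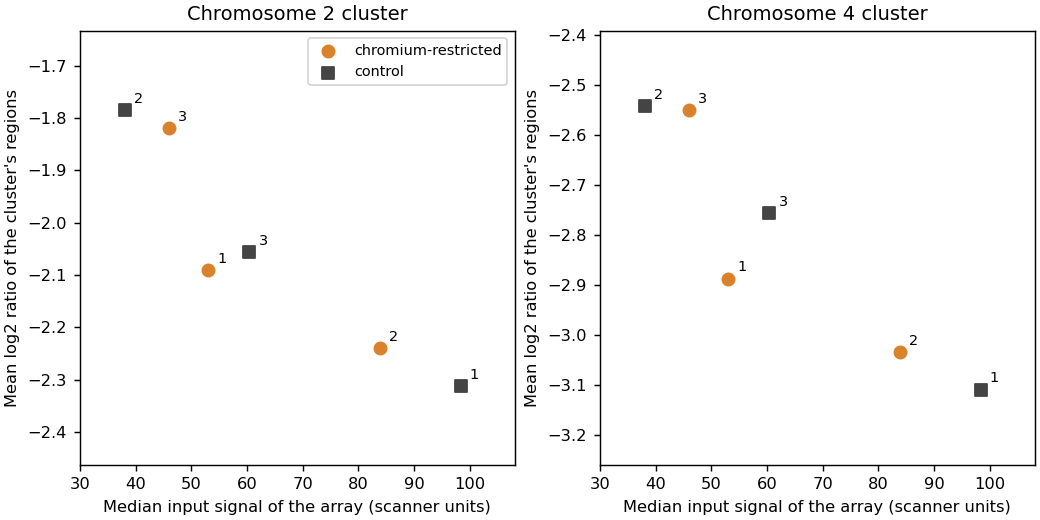
Mean log2 ratio of each cluster's regions against the median background-subtracted input signal of the array, 1 point per array, numbered within its group. Control array 2, with the dimmest input, is highest and control array 1, with the brightest input, is lowest in both clusters.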

How the data were processed

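DNA of 6 samples labelled as liver was hybridised to 2-colour Agilent arrays. The file headers name Agilent Feature Extraction 11.0.1.1 and an mm9 design. The deposited processed signals of the authors are intensity values, background-subtracted and scaled per channel. The authors' series values are normalized log2 ratios by assumption, since their log base, centring and smoothing are not given in the sources used here. They followed the scanner ratios (Pearson r of 0.751 to 0.854 over probes, column medians of 0.031 to 0.040) and served as an alternative. Their slope on the scanner ratios was 0.526 to 0.587, so they covered a narrower range.

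Processed red over green was taken as log2 and centred on each array's median, with no loess or quantile step. The 5827 control spots and 360 of 174638 probes, for a flag, stayed out. Regions are means over probes. Groups were compared with limma 3.58.1 in R 4.3.3 over all regions and probes (threshold 0.05, Benjamini-Hochberg). Further software was pandas 2.3.3 and matplotlib 3.10.9. On simulated data for this comparison over 21987 regions, 32% of 200 shifts of 0.5, 91% of shifts of 1 and 98.5% of shifts of 2 were recovered. Shifted regions were drawn from the whole array, with independent noise on each array. Cluster regions spread more, with a median SD of 0.24 on chromosome 2 and 0.27 on chromosome 4 against 0.11 over all regions. Recovery in the clusters themselves was not tested. Precision is limited by the number of arrays, and since litters are not given, p-values measure the spread between these samples only.

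The members and lists were chosen with earlier results of these data known. Regions named were the 5 lowest and 5 highest of each cluster, the 3 largest differences per direction, those at the window edges and any with separated groups or an unadjusted p under 0.05; other regions named for their channel signals, layout or place past the edge were chosen after their values were seen. The promoters printed were also chosen after their similarity was seen. Alternatives were normexp (on median signals, as the files used hold no mean signals), the authors' values, other region rules and centring, bright probes only, the replicate block, input brightness as a covariate and leaving out each array. Genes at single regions were not analysed here, since the gene tables are of another build.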

Additional observations from a re-analysis of the deposited data

How the results depend on the processing

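No region or probe of the clusters passed limma's adjusted threshold under any of 16 alternatives for regions and 13 for probes, with and without each array, and 0 cluster regions had an unadjusted p under 0.05 in any of them. Of the cluster probes, 6 had one with input brightness as a covariate, and 0 to 2 under the other alternatives. With the replicate block, equal to a block for scan, 0 cluster regions and 0 cluster probes passed limma's adjusted threshold. At an unadjusted p under 0.05 the counts were 0 cluster regions and 1 cluster probe. With group means taken out, arrays 1, 2 and 3 correlated between the groups at r = 0.15, -0.59 and 0.20. The number of an array is also that of its scan, so these values cannot separate a pairing from the scan. Whether the arrays were paired was not tested. Over the whole array the 196 regions at an unadjusted p under 0.05 became 112 with the replicate block, 36 with normexp, 79 with bright probes only (well above background), 846 with input brightness as a covariate and 119 to 558 without 1 array; the 2261 probes became 437, 861 and 6810 with normexp, bright probes and the covariate, 1335 with the authors' deposited table and 1743 to 4246 without 1 array. The mean difference ran from -0.13 to 0.13 on chromosome 2 and from -0.17 to 0.11 on chromosome 4 when 1 array was left out, the extremes being without control array 1 and without control array 2. The level of the chromosome 2 and chromosome 4 clusters was -0.92 and -1.56 with normexp, whose offset draws ratios toward 0, -1.42 and -2.09 in the authors' deposited table, -1.03 and -1.85 with bright probes only, and -1.78 and -2.55 with the median over probes; the cause of these shifts was otherwise not tested. Of 387 alternative levels of named regions, 99 moved by more than the spread. Levels moved in 26 of 28 with normexp, in 26 of 28 in the authors' deposited table and in 21 of 23 with bright probes. With the median over probes 18 of 28 moved, with centring on the mean 7 of 28 and with the 500 bp rule 1 of 28. No level moved when an array was left out. The sign turned from 145650471 with bright probes (0.44) and with the median over probes (0.16), and from 177875345 in the authors' deposited table (0.034). Of 12 named differences, none called, 27 of 191 alternative values had the opposite sign. With the median over probes the regions from 175867137, 175929777, 177574742, 177875345, 145052994 and 146033954 had -0.010, -0.028, 0.016, -0.045, -0.0035 and 0.071. With bright probes only, those from 175929777, 177908755 and 145052994 had -0.036, 0.013 and -0.010, and with normexp those from 177908755 and 146033954 had 0.015 and 0.0072. Leaving out 1 array gave -0.20 to 0.043 from 175099601, -0.092 to 0.17 from 175867137, -0.13 to 0.22 from 175929777, -0.20 to 0.057 from 177574742, -0.12 to 0.017 from 177908755, -0.020 to 0.047 from 145052994, -0.28 to 0.087 from 145205822, -0.13 to 0.19 from 145695577 and -0.33 to 0.062 from 146442047 (cause not tested).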

Other observations

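Beyond the exact copies, 12 regions of the chromosome 2 cluster shared part of their probe layout, at least 3 distances in a row between neighbouring probe starts, with a region of another layout, in 13 pairs. Their levels differed by 0.11 to 0.77, with a median of 0.38, on the log2 scale. The region from 175196972 to 175198258 shared 4 such distances with those from 175294521 and 176130417 and had a level of -2.27, against -3.04 and -3.05. Its input signal was 0.68 and theirs 0.86 and 0.89 above the array median (log2), while the IP signals were -1.75, -2.34 and -2.32. In each of these regions the IP was well above background on all arrays for only 2 of 6 probes. Their levels and IP signals thus rest mostly on the remaining probes and are bounds. On chromosome 4, 0 pairs shared part of a layout in this way. The regions from 175261035 and 175294521 had their copies 835901 and 835896 bp further along chromosome 2, at 176096936 and 176130417, so this pair of neighbours recurs as a block of nearly the same spacing.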
